A study of Homo sapiens with 4 samples.

Results

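Cancer-testis antigens are proteins that are made in germ cells and in many tumours and are silent in most other adult tissues. The genes described here are 9 such antigens known from multiple myeloma: MAGEA1, MAGEA2, MAGEA2B, MAGEA3, MAGEA6 and MAGEA12 of the MAGE-A family, MAGEC1 and MAGEC2 of the MAGE-C family, and PRAME. They were taken by gene symbol from the authors' deposited table, where each of the 9 matched 1 of 57773 genes. RNA was sequenced from KMS12PE and KMS11, established human lines of multiple myeloma, a malignancy of antibody-secreting plasma cells. Cells were given 1 µM OSSL_325096, a compound that the labels name by its code alone, or the solvent DMSO. All were grown in RPMI-1640 medium with 10% FBS, and how long they were treated was not given in the sources used here. There were 4 libraries, 1 for each line and treatment, so that the 2 libraries of each treatment came from different lines and neither line had a replicate. The number of cultures behind a library is not stated in the labels.

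MAGE-A, MAGE-C and PRAME genes are kept silent in somatic cells largely by DNA methylation of their promoters, and their mRNA appears where that methylation is lost. MAGE proteins bind RING-type ubiquitin ligases, as MAGEA2, MAGEA3, MAGEA6 and MAGEC2 do with TRIM28, while PRAME represses retinoic acid receptor signalling. Peptides of these proteins are shown on HLA class I molecules, which makes them targets of T cells and of tumour vaccines, and MAGEC1 and MAGEA3 are among the antigens most often described in myeloma.

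The promoters of the MAGE genes are shown to set out how alike the members are in this stretch. Whether their RNA reads can be told apart depends on the transcripts, which are compared below. Of the 9 genes, 8 had a promoter of 300 bases (250 before the start of transcription and 50 after it) in RefSeq on GRCh38.p14, and 7 of these held GGATGTG, a sequence with the GGAT core that ETS factors bind. The motif was chosen after the promoters had been read. It was searched on both strands and stood in 1505 of 35116 RefSeq promoters (4.29%). None of the 3 promoters of PRAME held it, and that of MAGEC1 held 2 copies in the direction of transcription and 1 on the other strand. Each line below gives 70 bases in the direction of transcription, from 20 bases before the first copy of the motif, with each copy in capitals, for MAGEA2B (chrX:152714548-152714617, plus strand), MAGEA2 (chrX:152753853-152753922, minus), MAGEA12 (chrX:152733725-152733794, plus), MAGEA6 (chrX:152769726-152769795, minus), MAGEA3 (chrX:152698688-152698757, plus), MAGEC1 (chrX:141903830-141903899, plus) and MAGEC2 (chrX:142205247-142205316, minus).
MAGEA2B: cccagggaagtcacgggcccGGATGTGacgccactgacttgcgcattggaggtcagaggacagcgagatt
MAGEA2: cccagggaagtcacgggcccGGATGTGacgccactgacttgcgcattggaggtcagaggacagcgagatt
MAGEA12: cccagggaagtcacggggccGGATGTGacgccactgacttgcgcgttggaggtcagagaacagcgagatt
MAGEA6: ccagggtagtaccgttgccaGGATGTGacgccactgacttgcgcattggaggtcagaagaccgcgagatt
MAGEA3: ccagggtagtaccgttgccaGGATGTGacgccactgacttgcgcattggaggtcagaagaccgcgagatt
MAGEC1: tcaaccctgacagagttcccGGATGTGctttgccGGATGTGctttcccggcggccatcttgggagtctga
MAGEC2: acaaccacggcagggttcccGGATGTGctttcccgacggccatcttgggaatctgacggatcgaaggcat

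MAGEA2 had 2 overlapping promoters in the table, and 1 of them was identical over its 300 bases to that of MAGEA2B; the promoters of MAGEA3 and MAGEA6 were identical too. The 70 bases shown were compared position by position, without gaps. MAGEA12 matched MAGEA2 and MAGEA2B at 67 positions (95.7%), and it matched MAGEA3 and MAGEA6 at 54 (77.1%). MAGEC1 and MAGEC2 matched each other at 36 positions (51.4%). This last value understates their likeness, because the further copy of the motif in MAGEC1 shifts the bases after it. No comparison with gaps was made. The longer form CCGGATGTG stood in MAGEA2, MAGEA2B, MAGEA12, MAGEC1 and MAGEC2 and in 0.339% of all promoters, and CAGGATGTG stood in MAGEA3 and MAGEA6 and in 0.470%. These forms contain GGATGTG, so the 3 shares overlap.

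The transcripts shared sequence as well. In the GENCODE 44 transcripts on GRCh37, 85.8% of the 100-base windows of MAGEA2 occurred letter for letter in MAGEA2B, and 79.1% of those of MAGEA2B occurred in MAGEA2. MAGEA3 shared 39.0% of its windows with MAGEA6, which shared 46.2% of its own. Windows common to both pairs numbered 28. MAGEA1, MAGEA12, MAGEC1, MAGEC2 and PRAME shared no such window with another of the 9 genes. How the authors assigned reads that fit more than 1 place was not given in the sources used here, so the separate values of MAGEA2 and MAGEA2B, and of MAGEA3 and MAGEA6, are uncertain.

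The data were the authors' own comparison of OSSL_325096 with DMSO over both lines. For each gene it lists a log2 fold change with its p-value and 1 level, the mean RPKM (reads scaled by transcript length and library size) of the treatment with the higher mean. A positive log2 fold change means higher with OSSL_325096; this direction rests on the title of the table, which names OSSL_325096 before DMSO. Very near 0 the sign need not match the RPKM means: of 152 genes whose reads, recovered as described further on, place the higher mean in DMSO, 144 had a log2 fold change below 0 and the highest value was 0.08. Of the 57773 genes, 34643 were listed at 0 RPKM, 23130 had a fold change and 11324 had a level of at least 1 RPKM. Plasma cell markers were present as the labels imply, with all 9 measured genes at 1 RPKM or more and a summed level of 1044 RPKM. Marker lists of 4 genes each for mature B cells, T cells, myeloid cells and stroma summed to 0.969, 1.24, 0.137 and 0.0563 RPKM, and CD8A, at 1.02 RPKM, was the 1 gene of these lists that reached 1 RPKM. No gene passed a correction for multiple tests, and 5 of the 11324 had an unadjusted p under 0.05.

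All 9 antigens had a level above 0, and 6 of the 9 reached 1 RPKM. In the authors' deposited table, MAGEA2B (ENSG00000183305, chrX:151883082-151887096, plus strand, hg19) was highest with 24.4 RPKM, above 91.4% of the 23130 genes. MAGEA12 (ENSG00000213401, chrX:151899293-151903184, minus strand) followed in that table with 22.4 RPKM, above 90.7%. MAGEA2 (ENSG00000184750, chrX:151918387-151922364, minus strand), a copy of MAGEA2B whose protein binds and inhibits p53, had 8.08 RPKM in the same column.

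The other 3 genes past the minimum were close to it. MAGEA6 (ENSG00000197172, chrX:151867214-151870825, plus strand) had 2.15 RPKM in the authors' deposited table. PRAME (ENSG00000185686, chr22:22890123-22901768, minus strand), the 1 member outside the X chromosome, had 1.47 RPKM and MAGEA3 (ENSG00000221867, chrX:151934652-151938240, minus strand) had 1.46 RPKM. PRAME and MAGEA3 were neighbours in this order, but their means come from different treatments, as given further on. No interval was computed for either mean, so the order between them is not settled.

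Against the set's name, 3 members were scarcely measured. MAGEC2 (ENSG00000046774, chrX:141290131-141293076, minus strand), a partner of TRIM28, had 0.208 RPKM in the authors' deposited table. MAGEC1 (ENSG00000155495, chrX:140991680-140997174, plus strand) had 0.0426 RPKM, and MAGEA1 (ENSG00000198681, chrX:152481522-152486115, minus strand), known as the first human tumour antigen found through T cells, had 0.0266 RPKM. These levels were above 36.4%, 17.0% and 11.4% of the 23130 genes. The members at 1 RPKM or more were therefore MAGEA2, MAGEA2B, MAGEA3, MAGEA6, MAGEA12 and PRAME. This rests on a mean over both lines, which does not show that each line expressed them.

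**Figure D1:**
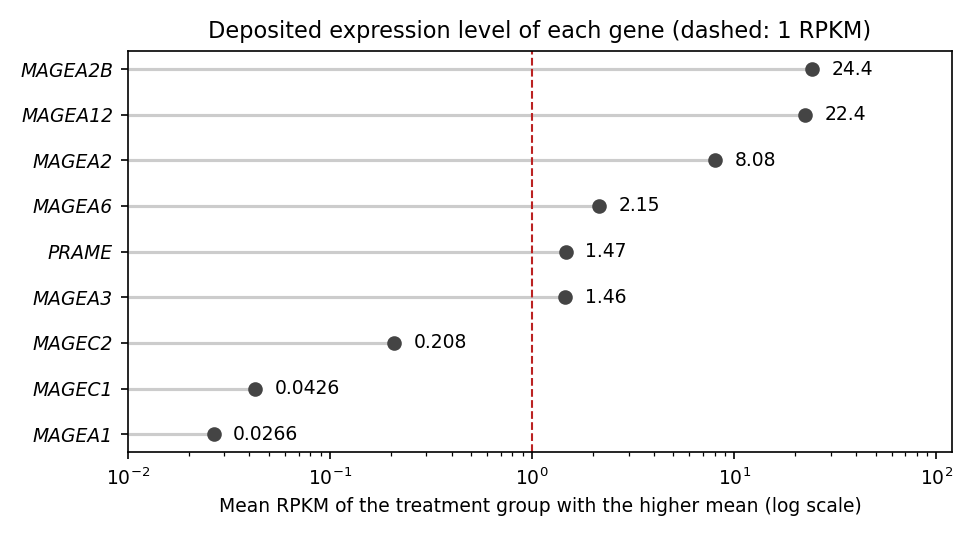
Deposited level of each gene: the mean RPKM of the treatment with the higher mean (log scale), 1 point per gene and no error bar because the table holds 1 value per gene. MAGEA2B and MAGEA12 lie above 20 RPKM, and MAGEC2, MAGEC1 and MAGEA1 lie left of the dashed line at 1 RPKM.

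The comparison of OSSL_325096 with DMSO asked which of these antigens differed with the compound. None did by the test. Adjusted p-values (Benjamini-Hochberg, computed from the authors' deposited p-values over the 11324 genes) were under 0.05 for 0 of the 6 genes at 1 RPKM or more, as for 0.0% of all such genes, and the smallest was 0.9999. Unadjusted, 0 of the 9 had a p under 0.05. By size, 2 of the 6 were at least 1.5-fold higher with OSSL_325096, against 4.95% of all genes at 1 RPKM or more, and 1 was at least 1.5-fold lower, also against 4.95%, so 3 of the 6 against 9.9% either way. Both of the higher genes and the lower one lie in 1 cluster and include a pair of copies, so they are not independent.

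MAGEA2B had the largest fold change of the 6. Its mean was 24.4 RPKM with OSSL_325096, and division by the fold change in the authors' deposited table gives 8.70 RPKM with DMSO. This is 2.80-fold higher (log2 1.48, unadjusted p = 0.409), and 99.7% of the genes at 1 RPKM or more had a lower log2 fold change. The standard error that this p-value implies under a normal test was 1.80 on the log2 scale, which gives a 95% interval for the log2 fold change from -2.04 to 5.01. No gene of the 6 other than MAGEA2B reached 2-fold higher, which 0.989% of all such genes did, and 0 of the 6 were 2-fold lower, against 1.09%.

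MAGEA2, the copy of MAGEA2B, lay on the other side of 0. It had 5.14 RPKM with OSSL_325096, by the same division, and 8.08 RPKM with DMSO. The authors' deposited table lists it as 1.57-fold lower (log2 -0.65, unadjusted p = 0.733), with an implied standard error of 1.91 and an interval from -4.39 to 3.09. With the copies summed, the pair had 29.5 RPKM with OSSL_325096 and 16.8 RPKM with DMSO, 1.76-fold higher (log2 0.81). The sign for MAGEA2 thus turns with the sum. MAGEA2B made up 82.6% of that sum with OSSL_325096 and 51.9% with DMSO. Whether the split between the copies is that of the RNA or of the read assignment was not tested.

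MAGEA12 shares no exact 100-base window with another member, unlike MAGEA2 and MAGEA2B. Shorter or inexact matches were not examined, and CSAG4 overlaps it, as given further on, so read assignment may still bear on its value. MAGEA12 had 22.4 RPKM with OSSL_325096 and 13.7 RPKM with DMSO. The authors' deposited table lists it as 1.63-fold higher (log2 0.71, unadjusted p = 0.697), with an implied standard error of 1.82 and an interval from -2.86 to 4.28. Of all genes at 1 RPKM or more, 97.1% had a lower log2 fold change.

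MAGEA6 and MAGEA3, whose proteins are near-identical activators of the TRIM28 ligase, had smaller fold changes. MAGEA6 had 2.15 RPKM with OSSL_325096 and 1.65 RPKM with DMSO, and the authors' deposited table gives this difference as log2 0.38 (unadjusted p = 0.862, implied SE 2.20). MAGEA3 had 1.46 RPKM with OSSL_325096 and 1.29 RPKM with DMSO, a difference of log2 0.17 by the authors' deposited table (unadjusted p = 0.937, implied SE 2.19). Summed, this pair had 3.61 RPKM with OSSL_325096 and 2.94 RPKM with DMSO, 1.23-fold higher (log2 0.29). The split between these copies was close in both treatments, with 59.7% of the sum in MAGEA6 with OSSL_325096 and 56.1% with DMSO.

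PRAME had the smallest difference of the 6, log2 0.02 by the authors' deposited table (1.01-fold, unadjusted p = 0.993, implied SE 1.86), and 50.8% of the genes at 1 RPKM or more lay below it. The interval of this value, from -3.63 to 3.66, shows how little the comparison limits it.

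Below 1 RPKM, fold changes rest on few reads, and a difference of at least 2-fold either way was found for 50.0% of the 11806 genes there. The authors' deposited table lists MAGEC2 as 4.42-fold higher (log2 2.14, implied SE 1.95, unadjusted p = 0.272), and MAGEA1 as 4.96-fold lower (log2 -2.31, implied SE 3.15, unadjusted p = 0.463). MAGEC1 stood at log2 -0.01 in the same table (implied SE 1.69, unadjusted p = 0.997). With MAGEA2B, 3 of the 9 genes were at least 2-fold from 1, against 26.5% of the 23130 genes. The log2 fold change and p-value of MAGEA1 were the same as those of 680 other genes, and as given further on its level rests on 1 read in 1 DMSO library.

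**Figure D2:**
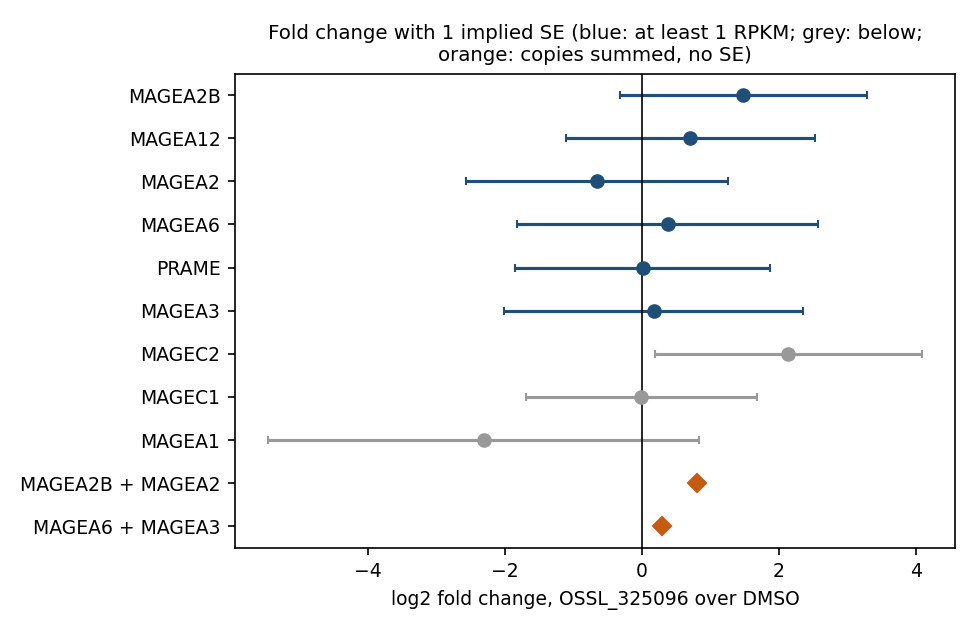
Log2 fold change of OSSL_325096 over DMSO for each gene, with bars of 1 implied standard error; the bottom rows give the sums of near-identical copies, without an error. The bars of 8 genes cross 0; that of MAGEC2 does not at 1 standard error, though its 95% interval, -1.68 to 5.97, does.

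Over the 6 genes at 1 RPKM or more, 5 log2 fold changes were above 0, among them that of PRAME whose higher RPKM mean was in DMSO, and 1 was below, where 51.0% of all such genes were above 0. Their median was 0.28, beside 0.01 for all such genes. The implied standard errors of the 6 ran from 1.80 to 2.20, and all 6 exceeded the median of 1.10 over all such genes. At the median gene's precision, too, a log2 fold change of 1.48 would not have reached an unadjusted p of 0.05.

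**Figure D3:**
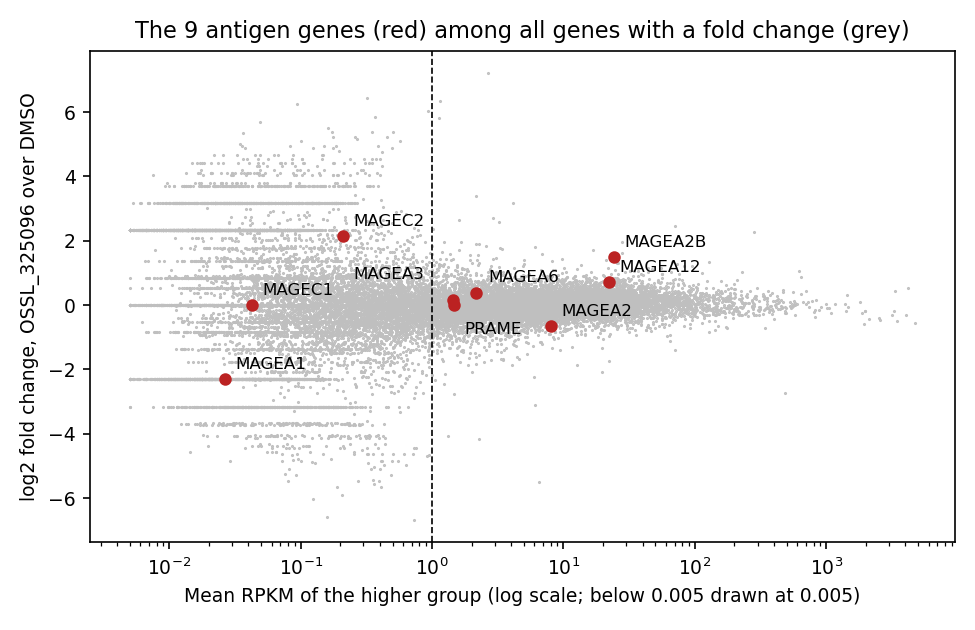
The 9 antigen genes (red) among the 23130 genes with a fold change (grey), by level (RPKM, log scale) and log2 fold change (OSSL_325096 over DMSO). MAGEA2B and MAGEA12 lie toward the upper side and MAGEA2 toward the lower side of the genes of like level, and the rows of points at the left are genes with few reads that share 1 value.

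The mean of a treatment over 2 lines can come from both or from 1, and the deposited means hold the answer for genes of known length. Every RPKM is a whole number of reads divided by transcript length and library size, so low values fall on steps. Genes with a single read in a single library gave the total of each library, 10852568 and 13363781 reads with OSSL_325096 and 11004435 and 12295104 reads with DMSO. With these totals, 2581 of 4584 genes with a single annotated transcript (56.3%) had exactly 1 pair of whole read numbers that gives the deposited mean. The 4584 genes include those with a single read that set the totals, so this share is not an independent check. With 7 bases added to the length, 23 genes (0.502%) had any solution. This was worked out after the deposited values had been seen. It recovers the 2 libraries of the higher mean; those of the lower mean could not be solved, because the authors' fold change is on a slightly different scale from the ratio of RPKM means. Which library is which line is not stated by the table, and the libraries are named here by their total only.

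For MAGEA3 and MAGEA6 the annotated transcript lengths of 2216 and 1863 bases gave 1 solution each. MAGEA3 had 70 reads in the OSSL_325096 library with fewer reads and 0 in the other. That is 2.91 RPKM (95% Poisson interval 2.27 to 3.68) against less than 0.101 RPKM, the level of 3 reads, so at least 28.7-fold higher in 1 library. MAGEA6 had 87 reads in the same OSSL_325096 library and 0 in the other, which is 4.30 RPKM (3.45 to 5.31) and at least 35.7-fold higher. The reads of both copies thus lay in the same library. Reads that fit both copies may have been divided between them, so these read numbers are not independent.

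For 6 further members the solution needed another length within 3% of the annotated one, and each had exactly 1. As a check, 200 genes of known length with at least 20 reads and 1 RPKM were searched in the same way. A solution at a wrong length was found for 4.5% of them, and for 0 of the 177 genes with reads in both libraries did such a solution place all reads in 1. MAGEA12 had 944 reads in the OSSL_325096 library with fewer reads and 0 in the other (length 1943 bases, annotated 1964). Its level there was 44.8 RPKM (95% Poisson interval 42.0 to 47.7), at least 387-fold above the other.

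With DMSO, MAGEA2 had 396 reads in the library with fewer reads and 0 in the other (length 2228, annotated 2272). This is 16.2 RPKM (14.6 to 17.8), at least 147-fold above the other. PRAME was the exception. Its higher mean was that of DMSO, with 132 of 136 reads (97.1%) in the library with more reads and 4 in the library with fewer (length 3778, annotated 3805). PRAME thus stood at 2.84 RPKM (2.38 to 3.37) in the DMSO library where MAGEA2 had no read, and at 0.0962 RPKM in the one that held MAGEA2. The mean of 1.47 RPKM describes neither library.

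MAGEA2B had 2 solutions, so its libraries are not settled. At a length of 2415 bases, all 1277 reads lay in the OSSL_325096 library with fewer reads (48.7 RPKM). At 2421 bases, 758 reads lay in that library and 643 in the other, 28.8 and 19.9 RPKM. The annotated length is 2422 bases.

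The members below 1 RPKM rested on a handful of reads. MAGEC2 had 9 reads in the OSSL_325096 library with fewer reads (0.417 RPKM, 0.190 to 0.791) and 0 in the other. MAGEC1 had 4 reads, all in the DMSO library with fewer reads (0.0851 RPKM, 0.0232 to 0.218), and MAGEA1 had 1 read there. At this depth a level of MAGEA1 or MAGEC1 in the other DMSO library was not detectable, which leaves room for up to 3 reads. All intervals cover counting error only, and the lowest fold differences given set the measured level against 3 reads without the error of that level.

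Of the 6 members at 1 RPKM or more, 5 had 1 solution and in 4 of these all reads lay in 1 library. For MAGEA3, MAGEA6 and MAGEA12 it was the OSSL_325096 library with fewer reads, and for MAGEA2 the DMSO library with fewer reads. Whether these libraries are of the same line is not stated. The 3 members below 1 RPKM hold too few reads to be counted with those 6. Among 234 solved genes at 1 RPKM or more with a single annotated transcript, 28 (12.0%) had all reads in 1 library, 12 of them in the library with fewer reads, and the median share in the fuller library was 75.2%. Those 234 were solved at their annotated length, whereas MAGEA12, MAGEA2 and PRAME needed a searched length. The 4 members lie in 1 cluster and include copies, so they are not independent, and the shares are not directly comparable. With all reads in 1 library, the means of MAGEA3, MAGEA6, MAGEA12 and MAGEA2 are each 1 library averaged with another that has no read. In bulk RNA, fewer cells with the transcript and less of it in each cell cannot be told apart.

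**Figure D4:**
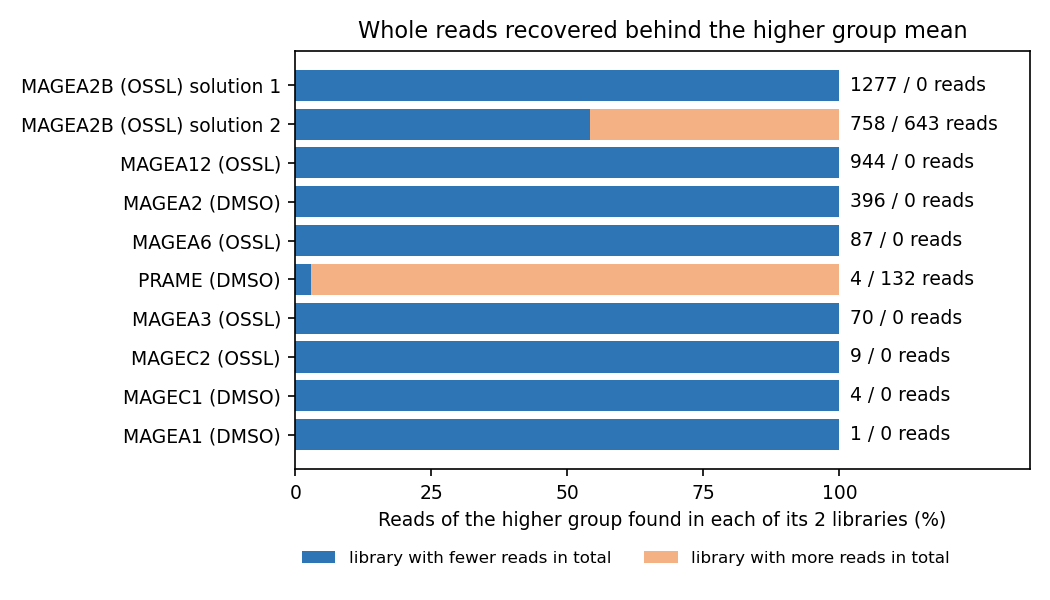
Share of the reads of the higher mean in each of its 2 libraries (%), with the treatment it belongs to in brackets and the read numbers at the right as library with fewer / more reads in total. Blue bars of 100% mark the MAGE genes found in 1 library only, PRAME lies mostly in the other library of DMSO, and MAGEA2B is drawn once for each of its solutions.

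The 5 MAGE-A genes at 1 RPKM or more lie within 71.0 kb on the X chromosome (chrX:151867214-151938240, hg19), interleaved with CSAG genes, which are cancer-testis genes too. Within 100 kb of any of the 9 members the table holds 36 other genes, of which 23 were at 0 RPKM, 7 were below 1 RPKM and 6 were at 1 RPKM or more. Each of CSAG1, CSAG2 and CSAG3 starts next to a MAGE-A gene that runs the other way. CSAG1, 0.044 kb from MAGEA12, had 18.9 RPKM and was listed at log2 0.38 in the authors' deposited table. CSAG2, 0.081 kb from MAGEA2, had 5.57 RPKM and 0.30 in that table, and CSAG3, 0.044 kb from MAGEA2B, had 3.36 RPKM and 0.05 (CSAG3 is named after its values were seen).

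The solved reads of these CSAG genes lay in the libraries with fewer reads, as those of the MAGE-A genes did. CSAG1 had 447 reads in the OSSL_325096 library with fewer reads and 0 in the other, CSAG2 had 131 and 0 in the same libraries, and CSAG3 had 80 in the DMSO library with fewer reads and 0 in the other. Like MAGEA2 and MAGEA2B, CSAG2 and CSAG3 are copies of each other. Of the neighbours that are not cancer-testis genes, the cholesterol synthesis gene NSDHL (14.9 RPKM) was listed at log2 0.71 and the centrin gene CETN2 (8.75 RPKM) at -0.13 in the authors' deposited table. CSAG4, which overlaps MAGEA12 on the same strand, had 0.427 RPKM in that table. Whether the authors counted reads by strand was not given in the sources used here.

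**Figure D5:**
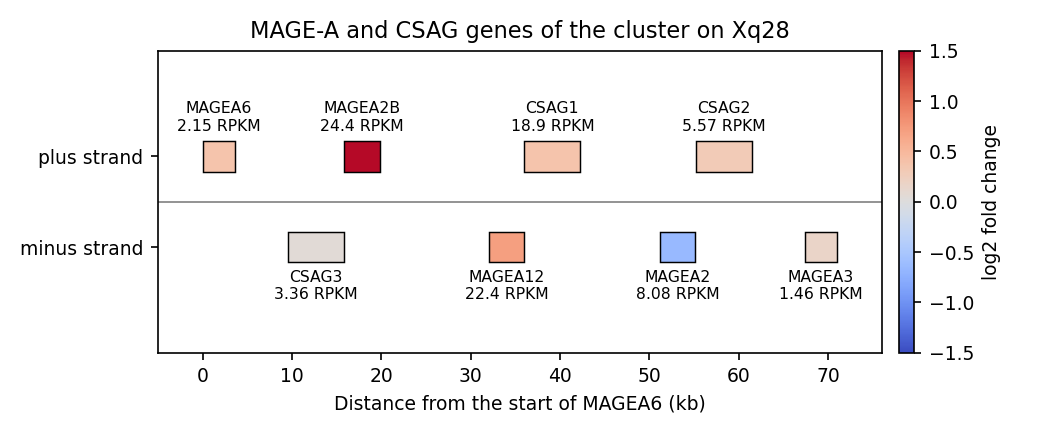
Map of the MAGE-A and CSAG genes at 1 RPKM or more on hg19 by distance from the start of MAGEA6 (kb) and strand, each with its deposited level (RPKM) and coloured by log2 fold change (OSSL_325096 over DMSO). MAGEA2B and MAGEA12 are the reddest and MAGEA2 the only blue gene, and each MAGE gene but MAGEA3 and MAGEA6 has a CSAG gene beside it on the opposite strand.

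Other cancer-testis genes were measured for the same treatments. Of 18 further MAGE-A, MAGE-B and MAGE-C genes, 0 reached 1 RPKM and 5 were at 0; the highest, MAGEA9, had 0.453 RPKM in the authors' deposited table. Of 57 cancer-testis genes of other families, 17 reached 1 RPKM, 13 of them with a log2 fold change above 0 and 4 below, with a median of 0.17. By size 1 of the 17 was at least 1.5-fold higher and 0 were as much lower, against 4.95% each way of all genes at 1 RPKM or more. That gene was CEP55, a protein of cell abscission, listed at log2 0.63 in the authors' deposited table (12.6 RPKM, implied SE 1.03). CTAG2, the LAGE-1 antigen gene, was named after its values were seen. It had the highest level of the list, 272 RPKM, stood at log2 0.13 in that table and had 5851 of its 5852 OSSL_325096 reads in the library with fewer reads. PAGE1 had 13.1 RPKM and was listed at log2 0.42 in the authors' deposited table, with all 189 reads in that same library. Of this list, 17 genes had 1 read solution and at least 10 reads. In 6 of the 17 all reads lay in 1 library, in each case the one of its treatment with fewer reads. The 6 include CSAG1, CSAG2 and CSAG3 described above, so this count is not separate from the MAGE-A cluster. Of 453 solved genes with a single annotated transcript and at least 10 reads, 71 (15.7%) had all reads in 1 library. Those 453 were solved at their annotated length, whereas some of the 17, such as PAGE1, needed a searched length.

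Genes that act with the antigens were measured too. Of 15 partner genes, 14 reached 1 RPKM, 8 above 0 and 6 below with a median log2 fold change of 0.07. None of the 14 was 1.5-fold from 1, against 9.9% of all genes at 1 RPKM or more, of which 51.0% were above 0. EZH2, the histone methyltransferase that PRAME recruits, had -0.55 (29.8 RPKM, implied SE 0.85) in the authors' deposited table. TRIM28, the ligase of the MAGE proteins, had 0.48 (151 RPKM, implied SE 1.01) there, and the retinoic acid receptor gene RARA had 0.42 (21.4 RPKM). Of 23 regulators of germline gene silencing, 20 reached 1 RPKM, 12 above 0 and 8 below with a median of 0.09. By size, 2 of the 20 were at least 1.5-fold lower, against 4.95% of all genes at 1 RPKM or more, and 0 were as much higher. DNMT3B, a DNA methyltransferase, had 0.52 (58.3 RPKM) and the lower ones, HELLS, a remodeller needed for DNA methylation, and the transcription factor gene SP1, had -0.67 and -0.65 in the authors' deposited table. All 15 measured genes of HLA class I presentation reached 1 RPKM, 10 above 0 and 5 below, with a median of 0.18. In none of these lists did a gene have an unadjusted p under 0.05.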

How the data were processed

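The RNA-seq data of 4 libraries came as 1 table of fold changes, made by the authors across both lines, with 0 columns of single libraries. Per the labels' protocols, oligo(dT) beads enriched the mRNA and random hexamers primed its copying. Per the series' design text, mapping was to hg19, and Biomedical Genomics Workbench 5 gave the RPKM values and compared the treatments; counting rule, annotation version and statistical model were not given in the sources used here. In the table the RPKM column, per the file headers, is the mean of the treatment with the higher mean. Log2 fold changes are the authors' own, and the deposited fold score repeats them on a signed linear scale. The p-values (unadjusted, false discovery rate, Bonferroni) were deposited too, and the test is not named, so which spread they measure is unknown. The libraries of each treatment came from different lines, so a spread within a treatment would hold the difference between lines.

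The genes and the other lists were chosen with earlier results of these data known. Genes at 1 RPKM or more were kept and Benjamini-Hochberg adjusted p-values recomputed over them; the planned limma fit needs single libraries. All 9 antigens are named, and of other lists at most 4 genes at 1 RPKM or more with the largest absolute log2 fold change; of neighbours within 100 kb, the 4 with the largest RPKM. An implied standard error is the log2 fold change, without its sign, over the normal quantile that the deposited p-value corresponds to, and is exact only for a normal test. Levels of the lower treatment are the deposited RPKM divided by the fold. Whole reads were recovered with a rounding slack of 1.5 times the rounding error of the deposited value. Counting intervals are exact Poisson, and floors are 3 reads per library. Shared windows were taken from GENCODE 44 transcripts on GRCh37 and promoters from RefSeq on GRCh38.p14; coordinates were not converted between builds. MAGEA3, MAGEA6 and MAGEA12 lie on opposite strands in hg19 and GRCh38.p14. Steps were tested on simulated data. Python 3.11.15, pandas 2.3.3, numpy 2.4.6, scipy 1.17.1 and matplotlib 3.10.9 were used. Alternatives were other RPKM minimums, the deposited false discovery rate, a fold threshold of 2, merged copies, centring on the median gene and removal of a trend with GC content and length.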

Additional observations from a re-analysis of the deposited data

How the results depend on the processing

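With no RPKM minimum, 5 of the 9 antigens were at least 1.5-fold from 1, against 3 of 6 as reported. The share of all genes at that setting was not computed, but 50.0% of genes below 1 RPKM were at least 2-fold from 1. At a fold threshold of 2 the count was 1 of 6. It was 3 at 5 RPKM, where only MAGEA2B, MAGEA12 and MAGEA2 remained. With fold changes centred on the median gene it was 3 of 6. With copies merged, where each pair counts as 1 gene, it was 2. The count of adjusted p-values under 0.05 was 0 under each alternative run for it. The median log2 fold change, reported as 0.28, was 0.17 with no minimum, 0.71 at 5 RPKM, 0.50 with copies merged and 0.17 with the trend in GC content and transcript length removed, which explained 14.5% of the variance over the genes kept. Merging turned MAGEA2 from -0.65 to the shared value of 0.81, and removing the trend moved PRAME to -0.05. No paired analysis was possible because the table holds no values of single libraries; leaving out each line and a fit with the line as a replicate block were not run for the same reason. Depth limits MAGEA1, MAGEC1 and MAGEC2, with 1, 4 and 9 reads in the higher mean.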

Other observations

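MAGE genes that most tissues express, called type II, were measured beside the antigens. Of 11 such genes 8 reached 1 RPKM, 2 with a log2 fold change above 0 and 6 below, with a median of -0.16. Of all genes at 1 RPKM or more, 51.0% were above 0. MAGED4 and MAGED4B, copies of each other on the X chromosome, were listed at log2 1.09 (6.80 RPKM) and -0.59 (4.76 RPKM) in the authors' deposited table. MAGED4 made up 68.2% of their sum with OSSL_325096 and 40.1% with DMSO, and the sum was 9.98 RPKM with OSSL_325096 and 7.95 RPKM with DMSO (log2 0.33). MAGED4 had 872 of its 874 OSSL_325096 reads in the library with more reads, and all 582 DMSO reads of MAGED4B lay in the DMSO library with more reads. MAGEH1 had 13.9 RPKM and was listed at log2 -0.33 in the authors' deposited table, with all 500 DMSO reads in the library with more reads.

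TTK, a cancer-testis gene and spindle checkpoint kinase that dividing cells also use, was named after its values were seen. It had 237 reads in the DMSO library with fewer reads and 218 in the one with more. Of the 9 plasma cell markers, 8 had a log2 fold change below 0 and 1 above, with a median of -0.28, where 51.0% of all genes at 1 RPKM or more were above 0. By size, 3 of the 9 were at least 1.5-fold lower and 1 as much higher, against 4.95% each way. The lower ones were CD38 at -0.73 (11.4 RPKM), IRF4 at -0.67 (174 RPKM) and TNFRSF17 at -0.66 (150 RPKM) in the authors' deposited table. SDC1 was the higher one, at 0.60 (89.7 RPKM). None of these markers had an unadjusted p under 0.05 there.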
